A study of Mus musculus with 20 samples.

Results

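Elf5, Hand1, Tpbpa, Ascl2, Cdx2, Eomes, Gata3, Krt7 and Plac1 are genes of the trophoblast, the lineage of the placenta, and these 9 genes were taken by name from the 35975 genes with a summed count. Their transcripts were counted in cells of ES-E14TG2a, a mouse embryonic stem cell line, by stranded sequencing of polyadenylated RNA. TKO cells and WT cells were taken as stem cells (D0) and on D2, D4, D6 and D8 of differentiation to neural progenitor cells, with 2 biological replicates for each genotype and day, so the groups are TKO D0, D2, D4, D6 and D8 and WT D0, D2, D4, D6 and D8. Stem cells of both genotypes grew without feeder cells on gelatin in serum with leukemia inhibitory factor, and differentiating cells of both grew on laminin in N2B27, a serum-free medium. The labels do not say which genes the TKO cells lack, whether they are 1 clone, or whether replicates came from separate cultures, so p-values measure the spread between these libraries, which may be technical.

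In the mouse embryo, trophoblast parts from the cells that make the embryo before implantation. The transcription factors Cdx2, Eomes, Elf5 and Gata3 act in trophoblast stem cells, Ascl2 and Tpbpa belong to the spongiotrophoblast and its precursors, and Hand1 is needed for giant cells. Embryonic stem cells come from the inner cell mass and normally contribute little to trophoblast. Most of these genes also act elsewhere: Eomes in the primitive streak and in cortical progenitors, Cdx2 in the posterior body, Gata3 in neurons of the hindbrain and in the sympathetic lineage, Hand1 in mesoderm, and Krt7 in simple epithelia.

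Libraries held 26015282 to 38074768 estimated counts. The 2 libraries of WT D0 lay furthest apart, with a median absolute log2 ratio of 0.158 over genes at 1 CPM or more, against 0.059 to 0.117 in the other 9 groups (CPM is counts per 1000000 counts after TMM scaling of library sizes). Dnmt1, the maintenance DNA methyltransferase, averaged 78.7 to 91.1 CPM over the 5 days in TKO and 295 to 481 CPM in WT. Pou5f1, a core factor of pluripotency, stood at 1310 ± 22.9 CPM in TKO and 1312 ± 39.4 CPM in WT at D0, and at 526 ± 37.5 CPM in TKO and 12.5 ± 7.14 CPM in WT at D8 (SD, n = 2 each). The summed level of 10 neural progenitor genes at D8 was 780 to 789 CPM in TKO and 1957 to 2002 CPM in WT.

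Most of the 9 trophoblast genes were higher in TKO than in WT at D6 and D8, and before then the calls were split. The exceptions were Cdx2 at D6 and Gata3, Elf5 and Plac1 at D8, which did not pass. At D6, 8 of the 9 genes were called higher in TKO and 0 lower at an adjusted p under 0.05, beside 20.9% of all 18555 genes tested called higher, 20.3% lower and 41.3% either way. At D8, 6 were called higher and 0 lower, beside 35.8% called higher, 31.8% lower and 67.5% either way, so the 6 of 9 called at D8 lie near the share of all genes and only their direction can be set against it. The median log2 fold change of the 9 genes was 2.66 at D6 and 1.54 at D8, against -0.0031 and 0.038 over all genes tested. At D0, 2 genes were higher and 3 lower in TKO, beside 19.4% of all genes called higher, 19.9% lower and 39.3% either way. At D2, 4 were higher and 1 lower (18.4% and 16.9% of all genes, 35.3% either way), and at D4 1 was higher and 1 lower (15.1% and 13.2%). The shares at D0, D2 and D4 rest on few genes, and the D4 share of 2 in 9 lies near the 28.3% of all genes called either way. In RNA from whole cultures, fewer cells of a type and less RNA per cell cannot be told apart. All 9 genes passed the filter on low counts, Elf5 and Tpbpa only through the groups where they were high. Both are among the 8 called at D6, and Tpbpa is among the 6 called at D8. There the filter in part fixed their direction, so they are no support for these counts. The D6 calls of Elf5 and Tpbpa also ended without WT D6 replicate 1.

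**Figure D1:**
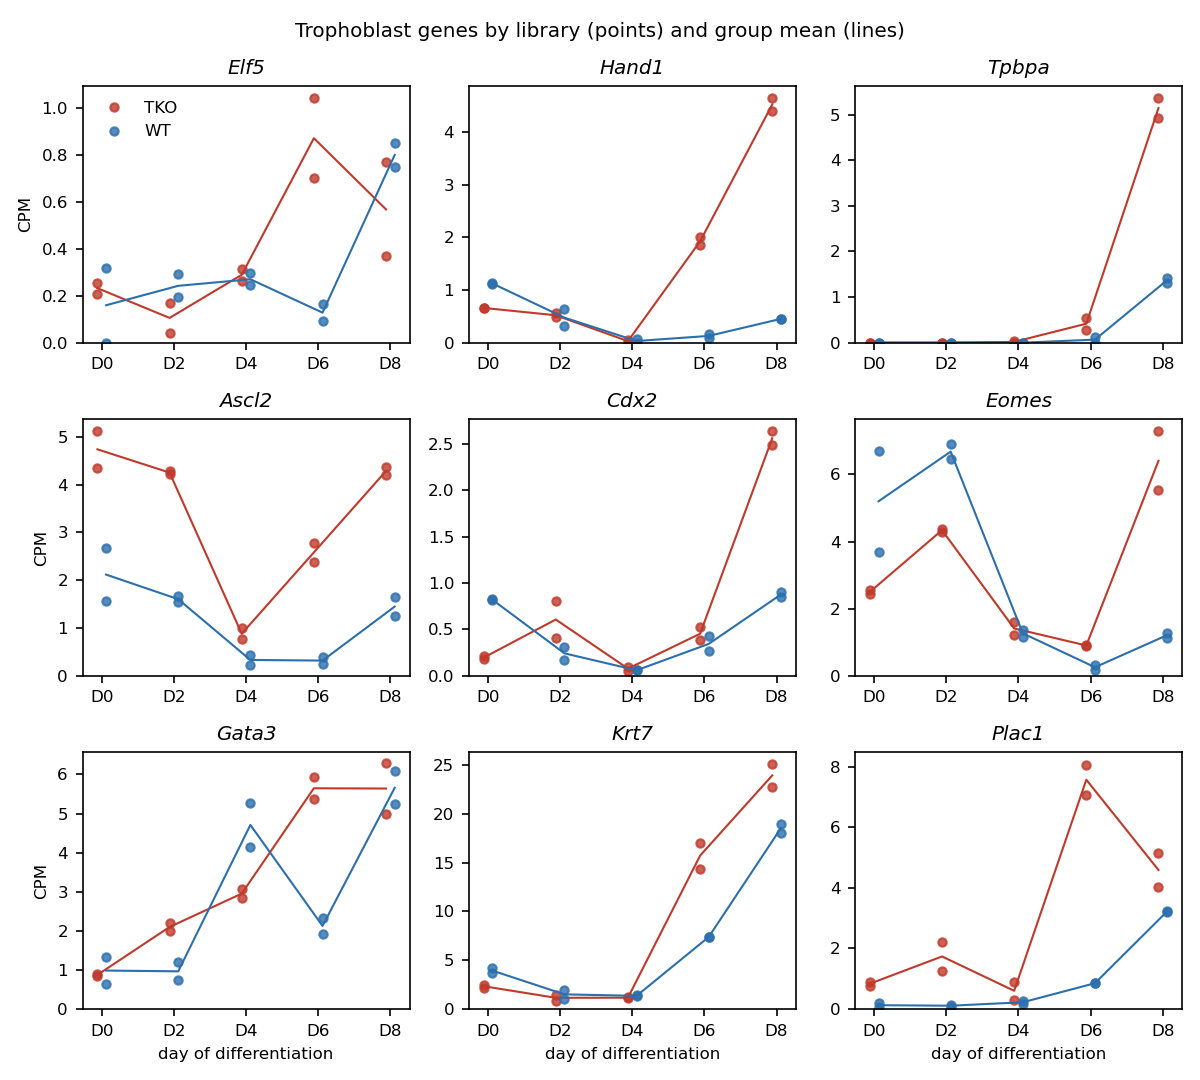
CPM of the 9 trophoblast genes (vertical axes, linear and different for each gene) by day of differentiation (horizontal axes), with each library as a point and lines through the means of the 2 libraries, TKO in red and WT in blue. Hand1 and Tpbpa climb in TKO after D4, Ascl2 lies higher in TKO at all 5 days, and Gata3 meets in both genotypes at D8, at 5.64 CPM in TKO and 5.66 CPM in WT.

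Promoter sequence is shown for the genes whose onset or choice of start site the results turn on, with Ascl2 for comparison. Ascl2 had transcripts in every library, as did Cdx2, Eomes, Gata3, Krt7 and Plac1. The bases are those of the RefSeq windows on GRCm38.p6 before each annotated start that lie outside annotated exons, and capitals mark CG, the dinucleotide that carries most DNA methylation in mammals. The windows are Elf5 second start at chr2:103423818-103424061 (plus strand), Tpbpa at chr13:60941985-60942186 (minus strand), Plac1 proximal start at chrX:53114531-53114655 (minus strand), Plac1 distal start at chrX:53240112-53240360 (minus strand) and Ascl2 at chr7:142969265-142969514 (minus strand).
Elf5: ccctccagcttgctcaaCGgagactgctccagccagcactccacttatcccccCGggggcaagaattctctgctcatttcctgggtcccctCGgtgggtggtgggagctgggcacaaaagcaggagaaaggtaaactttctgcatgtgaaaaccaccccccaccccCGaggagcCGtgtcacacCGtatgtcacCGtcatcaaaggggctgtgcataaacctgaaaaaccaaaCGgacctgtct
Tpbpa: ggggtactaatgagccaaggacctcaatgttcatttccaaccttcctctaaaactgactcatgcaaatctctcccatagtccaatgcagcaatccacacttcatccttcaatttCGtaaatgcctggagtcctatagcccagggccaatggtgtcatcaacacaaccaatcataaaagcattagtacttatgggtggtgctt
Plac1 proximal: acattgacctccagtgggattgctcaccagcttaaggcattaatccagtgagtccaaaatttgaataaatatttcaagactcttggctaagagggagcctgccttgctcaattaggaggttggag
Plac1 distal: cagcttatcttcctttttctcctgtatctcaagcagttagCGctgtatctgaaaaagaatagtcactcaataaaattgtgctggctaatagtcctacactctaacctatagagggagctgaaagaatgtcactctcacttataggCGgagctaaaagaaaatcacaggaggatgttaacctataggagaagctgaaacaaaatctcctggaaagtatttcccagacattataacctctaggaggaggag
Ascl2: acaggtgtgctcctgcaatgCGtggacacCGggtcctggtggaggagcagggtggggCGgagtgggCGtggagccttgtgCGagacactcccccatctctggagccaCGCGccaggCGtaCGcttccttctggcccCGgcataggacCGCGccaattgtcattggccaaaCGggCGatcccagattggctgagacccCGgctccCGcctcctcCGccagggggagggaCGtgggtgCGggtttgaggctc
The printed stretches held 8 CG for Elf5, 1 for Tpbpa, 0 for Plac1 proximal, 2 for Plac1 distal and 19 for Ascl2. Of the 9 genes, 8 had a RefSeq window, in 10 windows, and the counts that follow are over the full 250 bases, which for some windows include exon bases not printed here. Over these, Ascl2 held 19 CG and Tpbpa 2, with 8 at the second Elf5 start, 4 at the proximal Plac1 start, 2 at the distal one and 2 at the first Elf5 start. The median over 32851 RefSeq promoters was 6, and 92.13% held at least 1. The other windows held 19 CG in Gata3, 16 in Krt7, 13 in Cdx2 and 8 in Eomes. Motifs were searched in the full windows on both strands with overlapping matches counted. The AP-2 type motif GCCNNNGGC, in 13.73% of all promoters, occurred 3 times in Gata3, 2 times in Krt7 and 1 time each in Tpbpa and Cdx2. CATTCC, a core bound by Tead factors and found in 12.64% of promoters, occurred 1 time, at the first Elf5 start, and AGATAA, to which Gata factors bind and which 9.99% of promoters hold, occurred 1 time, in the distal Plac1 window. These matches describe letters in a window and are not binding sites.

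Cdx2, the homeobox factor that opens the trophoblast programme in the blastocyst (chr5:147300805-147307270), was low throughout and highest in TKO at D8. From D0 to D8 in TKO the paired libraries held 0.209 and 0.183, 0.411 and 0.802, 0.057 and 0.099, 0.521 and 0.386, and 2.48 and 2.63 CPM. In WT they held 0.829 and 0.812, 0.310 and 0.175, 0.059 and 0.061, 0.424 and 0.265, and 0.853 and 0.899 CPM. The genotypes did not overlap at D0, where TKO lay below WT, or at D2 and D8, where it lay above, and they overlapped at D4 and D6. The log2 fold change of TKO over WT was -2.04 ± 0.43 (SE, adjusted p = 0.00116) at D0 and 1.54 ± 0.31 (adjusted p = 0.000313) at D8. At D2 it was 1.33 ± 0.44 (adjusted p = 0.0250), a call that ended without TKO D2 replicate 2 (0.79, adjusted p = 0.319), without WT D2 replicate 2 (0.95, adjusted p = 0.229) and with DESeq2 (adjusted p = 0.0881). Between D8 and D0, Cdx2 rose in TKO by a log2 fold change of 3.68 ± 0.40 (adjusted p = 2.6e-07), whereas in WT the value was 0.09 ± 0.34 (adjusted p = 0.812). The difference between these 2 changes was 3.58 ± 0.53 (adjusted p = 2.0e-05).

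Eomes, the T-box factor that maintains trophoblast stem cells (chr9:118478212-118486132), changed order between the genotypes. TKO libraries from D0 to D8 held 2.44 and 2.56, 4.39 and 4.29, 1.60 and 1.22, 0.898 and 0.912, and 5.52 and 7.29 CPM. WT libraries held 6.70 and 3.70, 6.89 and 6.46, 1.16 and 1.38, 0.182 and 0.331, and 1.14 and 1.29 CPM. TKO lay below WT without overlap at D0 and D2, overlapped it at D4, and lay above it at D6 and D8. The fold change at D0 was -1.06 ± 0.24 on the log2 scale (adjusted p = 0.00218), a call that rested on the higher WT library, since without WT D0 replicate 1 it was -0.58 (adjusted p = 0.0634). At D2 it was -0.62 ± 0.23 (adjusted p = 0.0436), and that call ended under each omission of a D2 library, with adjusted p between 0.111 and 0.150, and under DESeq2 (adjusted p = 0.0829). At D6 the log2 fold change was 1.82 ± 0.42 (adjusted p = 0.0020) and at D8 2.40 ± 0.26 (adjusted p = 2.0e-07). Over the course from D0 to D8 the genotypes parted: D8 against D0 gave 1.36 ± 0.24 in TKO (adjusted p = 8.3e-05) and -2.10 ± 0.26 in WT (adjusted p = 7.9e-07), a difference of 3.46 ± 0.35 (adjusted p = 2.6e-07). WT D2 and TKO D8, the highest groups for Eomes at 6.68 and 6.41 CPM, overlapped.

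Elf5, an ETS factor that reinforces Cdx2 and Eomes in trophoblast stem cells and whose promoter is known to be methylated in mouse embryonic stem cells, lies on the plus strand at chr2:103411688-103450989. It stood at no more than 1.04 CPM in any library. In TKO from D0 to D8 the libraries held 0.209 and 0.256, 0.171 and 0.040, 0.315 and 0.264, 1.04 and 0.702, and 0.769 and 0.368 CPM. In WT they held 0.319 and 0, 0.194 and 0.291, 0.296 and 0.245, 0.091 and 0.165, and 0.853 and 0.749 CPM. At D6 both TKO libraries lay above both WT libraries, and at D8 they overlapped. The log2 fold change was 2.75 ± 0.71 at D6 (adjusted p = 0.00483) and -0.51 ± 0.57 at D8 (adjusted p = 0.447). The D6 call ended without WT D6 replicate 1 (2.38, adjusted p = 0.0564) and with length-scaled counts (1.88, adjusted p = 0.0537). At D0 the value was 0.52 ± 0.83, and without WT D0 replicate 1, which leaves a lone WT library at 0, it passed the threshold (adjusted p = 0.0136).

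Counts of Elf5 fell on several transcripts. Elf5-204, annotated as a retained intron, held 48.5% of the Elf5 counts of TKO D8 (16.4 counts over both libraries) and 56.1% of those of WT D8 (30.7 counts). The protein-coding Elf5-201, whose start follows the printed second Elf5 window, held 17.6 counts in TKO D6 and 0 in WT D6, and 9.0 in TKO D8 and 4.3 in WT D8. Between WT D8 and WT D0, Elf5 rose by 2.29 ± 0.69 on the log2 scale with all transcripts summed (adjusted p = 0.00591), a call that ended without WT D0 replicate 2, the library at 0 (1.31, adjusted p = 0.0577), and in a fit of the compared groups alone (adjusted p = 0.0561). With protein-coding transcripts alone the value was 0.65 (adjusted p = 0.622), and the change in TKO was then 3.31 (adjusted p = 0.0455), where the sum of all transcripts gave 1.26 ± 0.69 (adjusted p = 0.120).

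Gata3, a zinc-finger factor that acts beside Cdx2 in trophoblast (chr2:9857078-9890034), increased over differentiation in both genotypes and by a different route. From D0 to D8 in TKO, Gata3 stood at 0.906 and 0.842, 2.19 and 2.00, 2.83 and 3.07, 5.36 and 5.93, and 5.00 and 6.28 CPM. In WT it stood at 0.638 and 1.33, 0.736 and 1.19, 4.15 and 5.27, 2.33 and 1.92, and 5.23 and 6.08 CPM. TKO lay above WT at D2 and D6, below it at D4, and overlapped it at D0 and D8. TKO over WT gave log2 fold changes of 1.09 ± 0.29 at D2 (adjusted p = 0.00740), -0.67 ± 0.23 at D4 (adjusted p = 0.0368), 1.40 ± 0.24 at D6 (adjusted p = 0.000139) and -0.0015 ± 0.22 at D8 (adjusted p = 0.997). All 3 calls ended with length-scaled counts, at D6 with a value of 0.31 (adjusted p = 0.673), and the D4 call also ended under DESeq2 (adjusted p = 0.0622). D8 against D0 gave 2.69 ± 0.27 in TKO (adjusted p = 1.2e-07) and 2.52 ± 0.26 in WT (adjusted p = 8.5e-08), and the difference of 0.17 ± 0.39 did not pass (adjusted p = 0.756).

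Ascl2, a basic helix-loop-helix factor of the ectoplacental cone and an imprinted gene expressed from the maternal copy in placenta (chr7:142966829-142969264), was higher in TKO than in WT at all 5 days. TKO libraries from D0 to D8 held 4.35 and 5.13, 4.22 and 4.29, 0.772 and 0.991, 2.78 and 2.39, and 4.19 and 4.38 CPM. WT libraries held 2.68 and 1.56, 1.67 and 1.54, 0.237 and 0.429, 0.242 and 0.397, and 1.25 and 1.65 CPM. The genotypes did not overlap on any day, and both had their low point between D4 and D6. Log2 fold changes were 1.16 ± 0.24 at D0 (adjusted p = 0.0011), 1.41 ± 0.26 at D2 (adjusted p = 0.000352), 1.39 ± 0.37 at D4 (adjusted p = 0.0092), 3.01 ± 0.33 at D6 (adjusted p = 1.3e-06) and 1.56 ± 0.25 at D8 (adjusted p = 2.8e-05). The D4 call ended without WT D4 replicate 1 (1.03, adjusted p = 0.110) and without TKO D4 replicate 2 (1.21, adjusted p = 0.0751). D8 against D0 passed in neither genotype, with -0.14 ± 0.23 in TKO (adjusted p = 0.604) and -0.55 ± 0.27 in WT (adjusted p = 0.0679). The WT value passed with length-scaled counts (-0.64, adjusted p = 0.0433), without WT D0 replicate 2 (-0.90, adjusted p = 0.00625) and without WT D8 replicate 2 (-0.78, adjusted p = 0.0472).

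Ascl2 lies in the Kcnq1 imprinted domain, of which 10 genes including Ascl2 were tested. At D8, 4 were higher in TKO and 4 lower, near the shares of all genes (35.8% and 31.8%), and at D6 4 were higher and 2 lower (20.9% and 20.3% of all genes). Cdkn1c, a cell cycle inhibitor, was at 67.9 ± 1.05 CPM in TKO D8 and 405 ± 0.193 CPM in WT D8 (log2 fold change -2.58 ± 0.09, adjusted p = 1.3e-13). Phlda2, which restrains placental growth, was at 2.99 ± 0.0713 CPM in TKO D8 and 8.36 ± 0.561 CPM in WT D8 (-1.48 ± 0.16, adjusted p = 1.5e-07). Kcnq1, a potassium channel gene, stood at 0.133 ± 0.0586 CPM in TKO D8 and 0.702 ± 0.108 CPM in WT D8 (-2.38 ± 0.53, adjusted p = 0.000638). The summed level of the 10 genes was 438 to 440 CPM in TKO D8 and 770 to 776 CPM in WT D8. The gap between these sums was about that of Cdkn1c alone, and the median log2 fold change of the 10 genes at D8 was 0.0995.

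Tpbpa, a secreted protein that marks the spongiotrophoblast (chr13:60938492-60941984), was listed at 0 in all libraries of D0 and D2 and appeared late. In TKO it held 0 and 0.033 CPM at D4, 0.550 and 0.281 CPM at D6, and 4.93 and 5.36 CPM at D8. In WT it held 0 and 0 CPM at D4, 0 and 0.132 CPM at D6, and 1.42 and 1.32 CPM at D8. TKO lay above WT without overlap at D6 and D8. The log2 fold change was 2.66 ± 0.80 at D6 (adjusted p = 0.0177) and 1.91 ± 0.41 at D8 (adjusted p = 0.00124). The D6 call ended without TKO D6 replicate 1 (2.07, adjusted p = 0.143) and without WT D6 replicate 1 (1.64, adjusted p = 0.114). Against a floor of 3 counts over each D0 group, Tpbpa at D8 was at least 96.3-fold higher in TKO and at least 28.4-fold higher in WT than at D0. With both D0 groups at 0, the difference between these changes could not be fitted. D8 against D6 gave 3.59 ± 0.48 in TKO (adjusted p = 4.5e-05) and 4.35 ± 0.68 in WT (adjusted p = 0.000133). Of the 31-base words of Tpbpa, 8.07% occur in other genes, more than for the other 8 genes (0.0% to 2.11%), so part of its counts could come from related genes.

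Hand1, a basic helix-loop-helix factor needed for trophoblast giant cells and, in the embryo, for heart and extraembryonic mesoderm (chr11:57828705-57832818), had the largest fold change of the 9 genes between TKO and WT at D6 and D8. From D0 to D8 the TKO libraries held 0.662 and 0.659, 0.480 and 0.561, 0.057 and 0, 1.85 and 2.00, and 4.65 and 4.41 CPM. The WT libraries held 1.12 and 1.14, 0.310 and 0.641, 0 and 0.061, 0.091 and 0.165, and 0.455 and 0.449 CPM. Both genotypes fell to the counting floor at D4, after which TKO lay above WT without overlap. The log2 fold change was 3.88 ± 0.46 at D6 (adjusted p = 3.0e-06) and 3.31 ± 0.36 at D8 (adjusted p = 2.2e-07). At D0 TKO lay below WT without overlap, with a value of -0.77 ± 0.38 that did not pass (adjusted p = 0.120). D8 against D0 gave 2.77 ± 0.35 in TKO (adjusted p = 1.7e-06) and -1.31 ± 0.39 in WT (adjusted p = 0.00514), a difference of 4.08 ± 0.52 (adjusted p = 3.4e-06). Of the Hand1 counts of TKO D6, 51.6% fell on Hand1-203 and 48.4% on Hand1-201, whereas Hand1-201 held 90.1% of those of TKO D8 and all of those of WT D8. The 2 libraries of TKO D8 differed in this, with 27.3 and 0 counts on Hand1-203.

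Krt7, a keratin of simple epithelia and of trophoblast (chr15:101411043-101430313), had the highest TPM of the 9 at D8 in both genotypes and increased in both. TKO libraries from D0 to D8 held 2.19 and 2.49, 0.823 and 1.48, 1.14 and 1.19, 17.0 and 14.4, and 25.1 and 22.8 CPM. WT libraries held 4.21 and 3.67, 1.94 and 1.08, 1.39 and 1.32, 7.36 and 7.41, and 18.1 and 19.0 CPM. The genotypes did not overlap at D0 and D4, with TKO lower, or at D6 and D8, with TKO higher. Log2 fold changes were -0.75 ± 0.21 at D0 (adjusted p = 0.00856), 1.09 ± 0.16 at D6 (adjusted p = 4.3e-05) and 0.37 ± 0.15 at D8 (adjusted p = 0.0420). The D8 call ended under each omission of a D8 library (adjusted p between 0.0635 and 0.195), under DESeq2 (0.0711) and with protein-coding transcripts alone (0.25, adjusted p = 0.206), and the D0 call ended without TKO D0 replicate 1 (-0.67, adjusted p = 0.0705). D8 against D0 gave 3.35 ± 0.19 in TKO (adjusted p = 4.2e-11) and 2.23 ± 0.17 in WT (adjusted p = 1.6e-09), a difference of 1.12 ± 0.26 (adjusted p = 0.00148). Krt7-202, a retained intron, held 41.8% of the Krt7 counts of TKO D8 and 38.6% of those of WT D8, against 9.8% in TKO D0 and 10.1% in WT D0.

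Plac1, an X-linked gene of the placenta with a secreted or membrane-bound product (chrX:53069995-53240111), was high in TKO early and peaked there at D6. From D0 to D8 the TKO libraries held 0.906 and 0.769, 1.27 and 2.21, 0.315 and 0.892, 7.07 and 8.07, and 5.14 and 4.04 CPM. The WT libraries held 0.191 and 0.065, 0.077 and 0.146, 0.266 and 0.184, 0.848 and 0.860, and 3.21 and 3.24 CPM. TKO lay above WT without overlap on all 5 days. The log2 fold change was 2.67 ± 0.55 at D0 (adjusted p = 0.000967), 3.85 ± 0.51 at D2 (adjusted p = 1.7e-05) and 3.14 ± 0.32 at D6 (adjusted p = 6.0e-07). At D4 it was 1.37 ± 0.51 (adjusted p = 0.0531), which passed under DESeq2 (adjusted p = 0.0407) and without TKO D4 replicate 1 (1.96, adjusted p = 0.00785), and at D8 0.51 ± 0.28 (adjusted p = 0.124), which passed in a fit of D8 alone (0.49, adjusted p = 0.0236). D8 against D0 gave 2.45 ± 0.34 in TKO (adjusted p = 5.0e-06) and 4.60 ± 0.46 in WT (adjusted p = 4.6e-08). The difference of -2.16 ± 0.64 (adjusted p = 0.00863) passed, and without WT D0 replicate 2 it was -1.59 (adjusted p = 0.0720).

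Plac1 counts came from 2 main start sites, and their shares differed between groups. Plac1-202, which starts next to the printed proximal window, held 90.9% of the Plac1 counts of TKO D6 (430.9 counts over both libraries) and 36.5% of those of WT D6 (19.7 counts). Plac1-201, which starts next to the distal window, held 6.3% in TKO D6 (29.8 counts) and 52.6% in WT D6 (28.4 counts). Summed over the 2 libraries, the distal transcript thus had similar counts in both genotypes at D6, where the proximal one differed. Single libraries of D6 held 21.8 and 8.1 counts of Plac1-201 in TKO and 9.3 and 19.1 in WT. At D8 Plac1-202 held 64.1% in TKO (178.9 counts) and 75.7% in WT (167.3 counts). Plac1-201 then held 35.9% in TKO (100.1 counts) and 24.3% in WT (53.7 counts), with libraries that overlapped, so the D6 pattern was not kept at D8. At D0 all 47.0 Plac1 counts of TKO were assigned to Plac1-202. These shares come from the assignment of reads among transcripts that share exons, and the transcripts were not tested one by one.

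**Figure D2:**
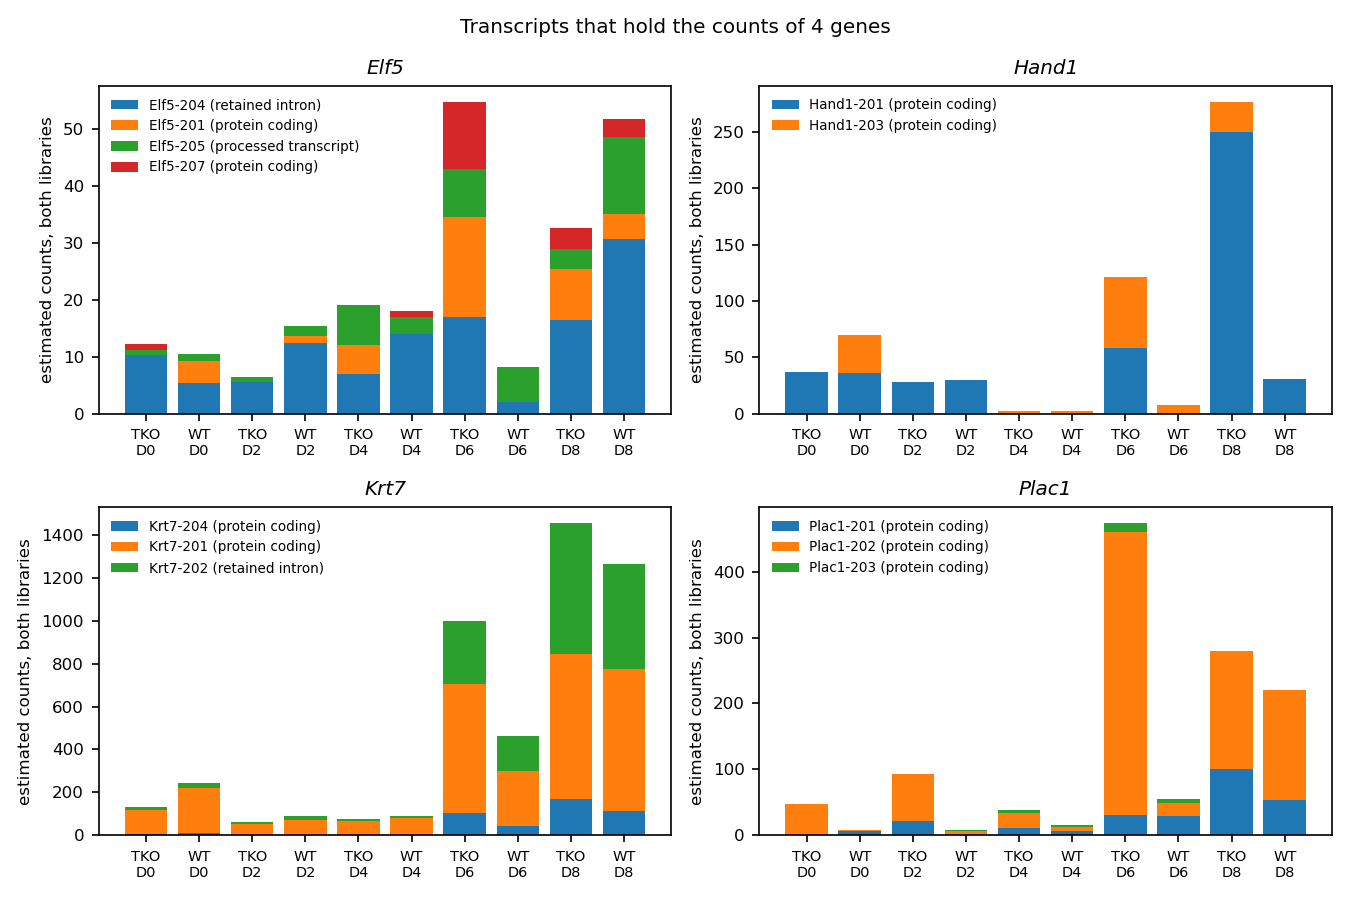
Estimated counts summed over the 2 libraries of each group (vertical axes) for the transcripts of Elf5, Hand1, Krt7 and Plac1, stacked in bars for TKO and WT at each day. Plac1-202 makes up most of the bar of TKO D6 with 430.9 counts, and the retained-intron transcripts Krt7-202 and Elf5-204 make up a large share of the bars at D8.

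Between D8 and D0, 7 of the 9 genes rose in TKO and 0 fell, beside 34.2% of all genes called higher and 30.8% called lower. In WT 5 rose and 2 fell, beside 37.8% and 39.0%. Either way, 7 of 9 genes were called in each genotype, and 65.1% of all genes in TKO and 76.8% in WT, so the number of calls was near that of all genes and only their directions can be set against it. Eomes and Hand1 were the 2 that fell in WT, and Ascl2 and Elf5 were the 2 that did not pass in TKO. Between D8 and D6, 6 genes rose and 1 fell in TKO (25.5% and 24.5% of all genes, 50.0% either way) and all 9 rose in WT (26.6% of all genes higher, 30.4% lower and 57.0% either way). Elf5 and Tpbpa passed the filter on low counts only through the groups where they were high, and Tpbpa had no counts at D0. Where their rises enter these counts, the filter in part fixed the direction, so they are no support for it. The gain of WT in those 2 days ran from a log2 fold change of 1.33 for Krt7 to 4.35 for Tpbpa, with a median of 1.91. In TKO the median was 0.73, Eomes rose by 2.82 ± 0.27 (adjusted p = 1.9e-07) and Cdx2 by 2.47 ± 0.34 (adjusted p = 1.2e-05), and Gata3 stood at 0.0026 ± 0.22 (adjusted p = 0.995). The fall of Plac1 in TKO, -0.72 ± 0.27 (adjusted p = 0.0366), did not pass under DESeq2 (adjusted p = 0.0691) or under any omission of a TKO D6 or TKO D8 library (0.0578 to 0.228). The calls of Ascl2 in TKO (0.73) and of Hand1, Elf5 and Cdx2 in WT each ended under the omission of at least 1 library. With length-scaled counts the WT calls of Gata3 (0.44, adjusted p = 0.466), Hand1 (1.13, adjusted p = 0.106) and Elf5 (1.75, adjusted p = 0.0520) ended.

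The difference between genotypes in the change between D8 and D0 passed for 5 of the 9 genes, positive for Krt7, Cdx2, Eomes and Hand1 and negative for Plac1, beside 29.3% of all genes positive, 22.9% negative and 52.3% either way. The 5 of 9 thus lie near the share of all genes. For Elf5 the difference was -1.03 ± 1.01 (adjusted p = 0.421), and without WT D0 replicate 1, which leaves a lone WT D0 library at 0, it passed (adjusted p = 0.00646). TKO D8 and WT D8 also enter the comparison of genotypes at D8, so these values share libraries.

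**Figure D3:**
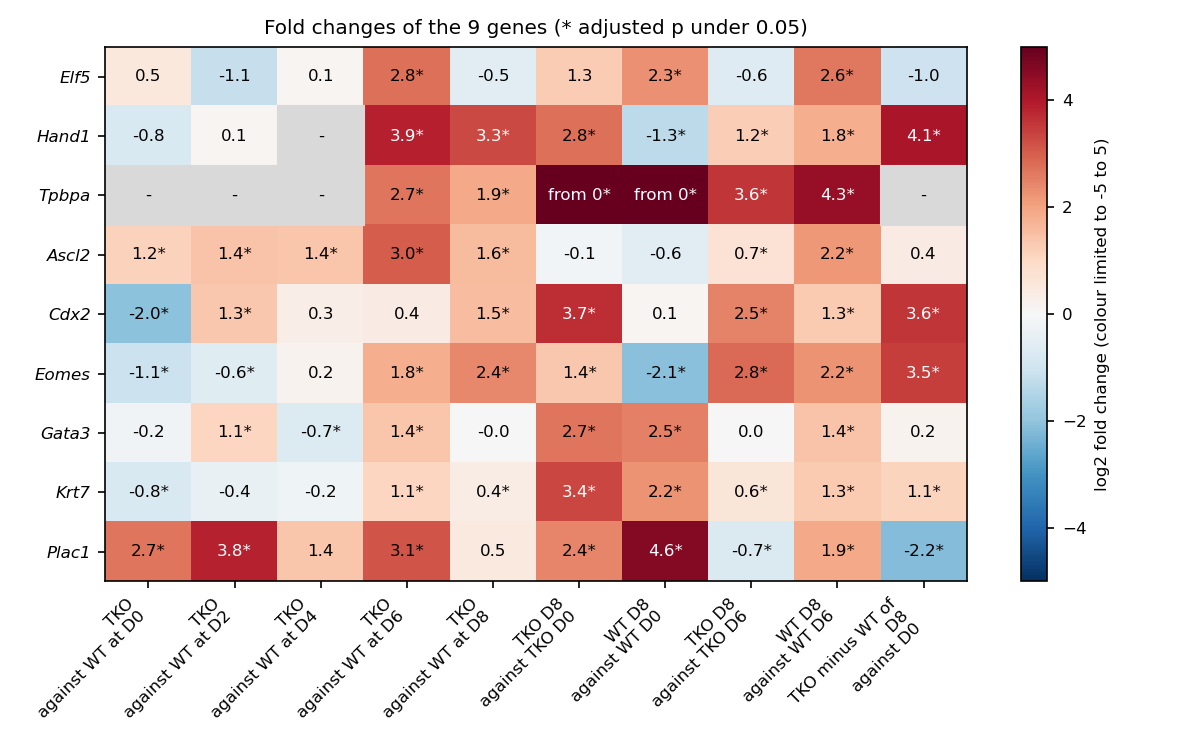
Log2 fold changes of the 9 genes (rows) in 10 comparisons (columns) as printed numbers and colour, with an asterisk for an adjusted p under 0.05, grey cells where both groups were at the counting floor or the difference could not be fitted, and "from 0" where the earlier group was at 0. In TKO against WT, 8 of 9 cells carry an asterisk at D6 and 6 at D8, all red.

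Levels can be compared between genes only per transcript length, in TPM. At D8 in TKO the order by mean was Krt7 at 18.5 ± 1.78 TPM, Tpbpa at 9.26 ± 0.446, Plac1 at 7.46 ± 1.38, Ascl2 at 5.25 ± 0.0863, Hand1 at 4.12 ± 0.164, Gata3 at 3.58 ± 1.03, Eomes at 3.15 ± 0.577, Cdx2 at 1.92 ± 0.0925 and Elf5 at 0.647 ± 0.452 TPM (SD, n = 2). In WT at D8 the order was Krt7 at 16.7 ± 2.18 TPM, Plac1 at 6.59 ± 0.253, Gata3 at 4.63 ± 0.721, Tpbpa at 2.65 ± 0.285, Ascl2 at 2.14 ± 0.309, Elf5 at 1.51 ± 0.361, Cdx2 at 0.840 ± 0.0316, Eomes at 0.739 ± 0.0506 and Hand1 at 0.523 ± 0.00423 TPM. Tpbpa and Hand1 thus stood higher in the order of TKO than in that of WT, and Gata3 and Elf5 lower. Summed over the 9 genes, libraries of D8 held 57.6 to 57.7 CPM in TKO and 32.5 to 34.7 CPM in WT, and those of D6 35.1 to 37.1 CPM in TKO and 11.6 to 11.7 CPM in WT. At D4, the low point of the course, the sums overlapped, at 7.09 to 7.76 CPM in TKO and 7.55 to 8.95 CPM in WT.

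Across the 10 groups, the genes did not share 1 order. Hand1, Tpbpa, Cdx2 and Krt7 were highest in TKO D8, and for each of them that group did not overlap the next. Plac1 was highest in TKO D6 without overlap. Ascl2 was highest in TKO D0, which overlapped TKO D8 and that in turn TKO D2 (4.74, 4.29 and 4.25 CPM). Gata3 was alike in WT D8, TKO D6 and TKO D8 (5.66, 5.65 and 5.64 CPM), and Elf5 was highest in TKO D6, WT D8 and TKO D8 (0.872, 0.801 and 0.568 CPM), with neighbours overlapping in both cases. As a description over the 20 libraries, which share genotype and day, Pearson's r of log2 (CPM + 0.5) was highest for Tpbpa with Cdx2 (0.836), Tpbpa with Krt7 (0.808) and Hand1 with Cdx2 (0.805), and lowest for Eomes with Gata3 (-0.383).

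The genes most like each member over the same 20 libraries were sought among 12387 genes that reached 5 CPM in a group. For Tpbpa they were Sct, the hormone secretin (r = 0.938), Serpinb9e (0.937) and Fstl3 (0.919). For Hand1 they were Lrrc8d (0.957), Rhox9, a homeobox gene of the Rhox cluster (0.921), and Cldn6, a tight junction protein (0.912). For Ascl2 they were Plet1, a surface protein of trophoblast progenitors (0.957), Epas1, a hypoxia-inducible factor (0.942), and Dusp9, a placental phosphatase (0.936). Krt7 was closest to Dner (0.941), Krt18, its partner class of keratin (0.938), and Vtn (0.933), and Eomes to Fmn1 (0.940), Cdh1, the epithelial cadherin (0.938), and Pdzd4 (0.936). Genes close to Gata3 were Ptprt (0.925) and Eps15 (0.910), the closest to Cdx2 were Trim66 (0.879), Plch2 (0.877) and Fstl3 (0.840), and the closest to Plac1 were Capn6 (0.930), Nefm (0.919) and Th (0.906).

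Other genes of the trophoblast were set beside the 9. Of 16 further genes of trophoblast stem cells and extraembryonic ectoderm, 9 were higher and 3 lower in TKO at D8 (median log2 fold change 0.84), and 11 higher and 2 lower at D6 (1.18). Over all genes tested, 35.8% were higher and 31.8% lower at D8 and 20.9% and 20.3% at D6, so the 12 of 16 called at D8 lie near the 67.5% of all genes called either way. Cdh3, the placental cadherin, stood at 56.3 ± 1.30 CPM in TKO D8 and 7.88 ± 0.0836 CPM in WT D8 (log2 fold change 2.84 ± 0.15, adjusted p = 2.6e-11). Klf5, a factor shared with stem cells, and Esx1, a homeobox gene of the placenta, were higher by 2.15 ± 0.21 and 1.43 ± 0.21. Wnt7b, a ligand needed for placental fusion and also made by neural tissue, was lower, with 23.7 ± 0.626 CPM in TKO D8 and 103 ± 11.9 CPM in WT D8 (-2.12 ± 0.14, adjusted p = 2.6e-10). The summed level of the 16 genes at D8 was 302 to 305 CPM in TKO and 350 to 373 CPM in WT, the reverse order of the calls. The gap between these sums was smaller than that of Wnt7b alone.

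Among 10 genes of syncytiotrophoblast and labyrinth, 8 were higher and 0 lower in TKO at D8 (median 1.22), and 9 and 0 at D6 (1.83). Over all genes tested, 35.8% were higher and 31.8% lower at D8, and 20.9% and 20.3% at D6. The 8 of 10 called at D8 lie near the 67.5% called either way, and only their direction can be set against it. Slc16a3, a lactate transporter that many cells use, was at 124 ± 8.52 CPM in TKO D8 and 5.48 ± 0.460 CPM in WT D8 (4.50 ± 0.36, adjusted p = 5.1e-09). Synb, a fusion protein of the syncytium, was at 1.56 ± 0.617 CPM in TKO D8 and 0.251 ± 0.154 CPM in WT D8 (2.63 ± 0.55, adjusted p = 0.000402). Ovol2, an epithelial zinc-finger factor, and Slc16a1, another lactate transporter, were higher by 3.14 ± 0.34 and 1.41 ± 0.11. Gcm1, the factor that starts syncytiotrophoblast, stood at 0.201 ± 0.111 CPM in TKO D8 and 0.275 ± 0.134 CPM in WT D8, which overlapped. The summed level of the 10 genes was higher at D0 than at D8 in both genotypes. It was 425 to 440.5 CPM in TKO D0 and 215 to 346 CPM in WT D0. At D8 it was 315 to 325 CPM in TKO and 77.5 to 89.5 CPM in WT.

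Of 27 genes of spongiotrophoblast, glycogen cells and giant cells, 10 had enough counts to be tested. At D8, 7 of these 10 were higher in TKO and 0 lower, and at D6 4 and 0. Over all genes tested, 35.8% were higher at D8 and 20.9% at D6. Either way, 67.5% were called at D8 and 41.3% at D6, so both numbers of calls lie near the share of all genes. A gene that passed the filter only where it is high had to differ, so these counts describe the 10 and not the 27. Ctsj, a placental cathepsin, was at 4.29 ± 1.82 CPM in TKO D8 and 0.310 ± 0.197 CPM in WT D8. Sct was at 24.8 ± 1.73 CPM in TKO D8 and 4.99 ± 0.0585 CPM in WT D8 (2.31 ± 0.16, adjusted p = 8.1e-10), and Pcdh12, a protocadherin of glycogen cells and endothelium, at 3.28 ± 0.0867 CPM in TKO D8 and 0.433 ± 0.232 CPM in WT D8. Ctsq, another placental cathepsin, was at 0.545 ± 0.226 CPM in TKO D8 and 0.115 ± 0.0783 CPM in WT D8. Ctsj, Pcdh12 and Ctsq had few counts outside TKO, so their levels are given without a test. The prolactin family genes of the list were low and unequal. Prl2a1 stood at 1.54 ± 0.490 CPM in TKO D8 and 0.745 ± 0.0479 CPM in WT D8 (1.04 ± 0.61, adjusted p = 0.155), and Prl6a1 at 0.549 ± 0.213 CPM in TKO D8 and 0.304 ± 0.133 CPM in WT D8 (0.83 ± 0.61, adjusted p = 0.255). Both had their counts almost only at D8: in TKO D0 Prl2a1 averaged 0.146 CPM and Prl6a1 0.0174 CPM, and in WT D0 both were at 0. Prl3d1, placental lactogen of giant cells, averaged 0.0328 CPM in TKO D8 and 0.0142 CPM in WT D8, and Prl8a8 of the spongiotrophoblast was at 0 in both. Tpbpb, the neighbour and near relative of Tpbpa, averaged 0.0984 CPM in TKO D8 and 0 in WT D8. At D8, 4 of the 27 genes were at 0 in TKO and 7 in WT.

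**Figure D4:**
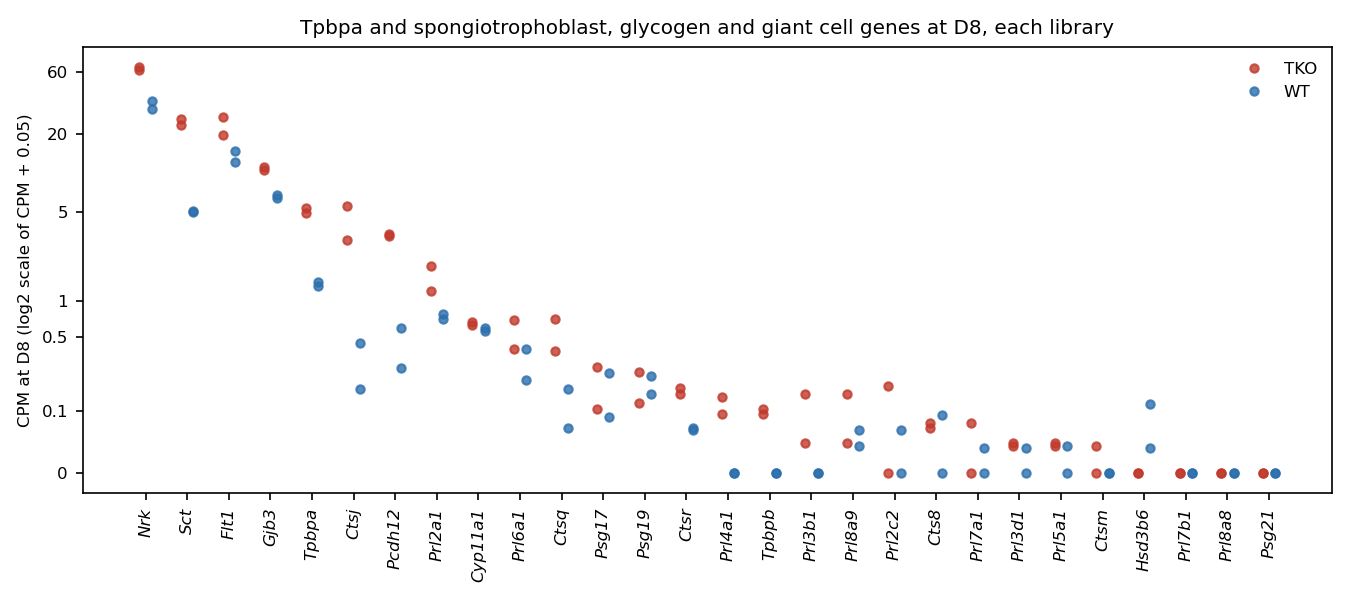
CPM at D8 (vertical axis, log2 scale of CPM + 0.05) of Tpbpa and the 27 genes of spongiotrophoblast, glycogen and giant cells, each library as a point, TKO in red left of WT in blue. Sct, Tpbpa, Ctsj and Pcdh12 lie higher in TKO, and of the prolactin genes Prl2a1 and Prl6a1 lie highest, at 1.54 and 0.549 CPM in TKO.

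Markers of other cell types moved in the same libraries. At D6, 13 of 16 genes of surface ectoderm and simple epithelium were higher in TKO and 0 lower. Of 10 pluripotency genes 9 were higher and 1 lower at D6, and of 10 neural progenitor genes 3 and 4 (20.9% and 20.3% of all genes). At D8, 35.8% of all genes were higher in TKO, 31.8% lower and 67.5% called either way. Of 16 genes of surface ectoderm and simple epithelium, 13 were higher and 2 lower in TKO at D8, with sums of 818 to 840 CPM in TKO and 275 to 283 CPM in WT and no gene at 0. Epcam, an epithelial adhesion protein, was at 145 ± 11.3 CPM in TKO D8 and 8.69 ± 0.338 CPM in WT D8 (log2 fold change 4.06 ± 0.13, adjusted p = 3.7e-14), and Grhl2, a factor of epithelia, at 46.5 ± 2.24 and 2.88 ± 0.208 CPM (4.01 ± 0.11, adjusted p = 1.1e-14). Of 10 pluripotency genes, 8 were higher and 2 lower, with sums of 1036 to 1101 CPM in TKO and 246 to 272 CPM in WT. The 10 neural progenitor genes gave 0 calls upward and 9 downward. The part of pluripotent, epithelial and neural cells in the levels of the 9 genes was not tested.

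For the other sites of Eomes, Cdx2, Gata3 and Hand1, the markers did not move as 1 group at D8. At D6 each of their lists had more genes called higher than lower in TKO (20.9% and 20.3% of all genes). Endoderm gave 9 higher and 0 lower of 14, streak and mesoderm 3 and 1 of 12, and posterior genes 3 and 2 of 8. Cortical progenitor genes gave 3 and 2 of 8, Gata neuron genes 3 and 0 of 7 and crest genes 5 and 2 of 8. Sums at D6 were higher in TKO for streak, endoderm, posterior and Gata neuron genes and lower for cortical progenitor and crest genes. At D8, to which the calls that follow belong, 35.8% of all genes were higher, 31.8% lower and 67.5% called either way. The numbers of calls in these lists lie near or below the last share. Primitive streak and mesoderm genes gave 3 higher and 4 lower of 12 tested in TKO. Their sums at D8 were 34.3 to 42.2 CPM in TKO and 139 to 145 CPM in WT, with 1 of the 14 listed genes at 0 in TKO. At D6 the order of the sums was the reverse, at 36.6 to 40.3 CPM in TKO and 19.9 to 21.8 CPM in WT. Tbx20, a T-box factor of heart that motor neurons also use, stood at 2.51 ± 0.0427 CPM in TKO D8 and 22.6 ± 4.07 CPM in WT D8 (-3.17 ± 0.19, adjusted p = 1.0e-10), and Lhx1, a LIM homeobox factor of mesoderm and of spinal neurons, at 18.3 ± 0.902 CPM in TKO D8 and 100.3 ± 0.589 CPM in WT D8 (-2.45 ± 0.13, adjusted p = 3.4e-11). Evx1 was also lower (-2.67 ± 0.30), and Fgf8, a growth factor of the streak, was higher (2.46 ± 0.33). Lhx1 and Tbx20, which neurons also use, made up most of the WT sum at D8. The sums are therefore no measure of the streak, and the median log2 fold change of the 12 tested genes was 0.0586. Of the defining genes, T stood at 4.33 ± 2.62 CPM in TKO D8 and 1.26 ± 0.511 CPM in WT D8 (1.78 ± 0.38, adjusted p = 0.000504), and Mesp1 averaged 0.0481 CPM in TKO D8 and 0.0150 CPM in WT D8. Endoderm genes gave 4 higher and 3 lower of 14, with overlapping sums of 90.3 to 146 CPM in TKO and 83.3 to 129 CPM in WT, and Afp, an endoderm protein, was at 1.70 ± 0.0200 CPM in TKO D8 and 0.118 ± 0.0869 CPM in WT D8 (3.81 ± 0.66, adjusted p = 9.7e-05). Apoa1 and Ttr, made by yolk sac endoderm, were higher by 1.92 ± 0.68 and 1.34 ± 0.41, whereas Sox7, a factor of primitive endoderm, was lower, at 0.798 ± 0.0410 CPM in TKO D8 and 1.88 ± 1.00 CPM in WT D8 (-1.23 ± 0.47, adjusted p = 0.0283). At D0, 13 of the 14 endoderm genes were higher in TKO and 0 lower (19.4% and 19.9% of all genes). Their sums were then 393 to 436 CPM in TKO and 28.7 to 38.7 CPM in WT. At D2, 12 were higher and 0 lower (18.4% and 16.9% of all genes). The D2 sums were 349 to 462 CPM in TKO and 32.26 to 36.45 CPM in WT. Posterior Cdx and Hox genes gave 2 higher and 3 lower of 8 tested, with sums of 11.3 to 13.6 CPM in TKO and 16.5 to 17.2 CPM in WT and 2 of the 11 listed genes at 0 in WT. Genes of cortical intermediate progenitors, where Eomes also acts, gave 1 higher and 5 lower of 8, with sums of 95.8 to 100.4 CPM in TKO and 316 to 339 CPM in WT, and Neurog2, their proneural factor, stood at 2.68 ± 0.0274 CPM in TKO D8 and 24.9 ± 3.14 CPM in WT D8. Genes of Gata neurons gave 1 higher and 4 lower of 7, with sums of 15.2 to 17.4 CPM in TKO and 28.9 to 30.5 CPM in WT, and neural crest and sympathetic genes 4 higher and 2 lower of 8, with sums of 40.8 to 42.8 CPM in TKO and 84.2 to 90.1 CPM in WT. The 4 tested genes of 2-cell-like cells, a state of stem cell cultures that expresses genes of the cleaving embryo, had a median log2 fold change of -0.35, with sums over the list of 0.664 to 0.949 CPM in TKO and 1.25 to 1.32 CPM in WT. The part of these cell types in the levels of the 9 genes was not tested.

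**Figure D5:**
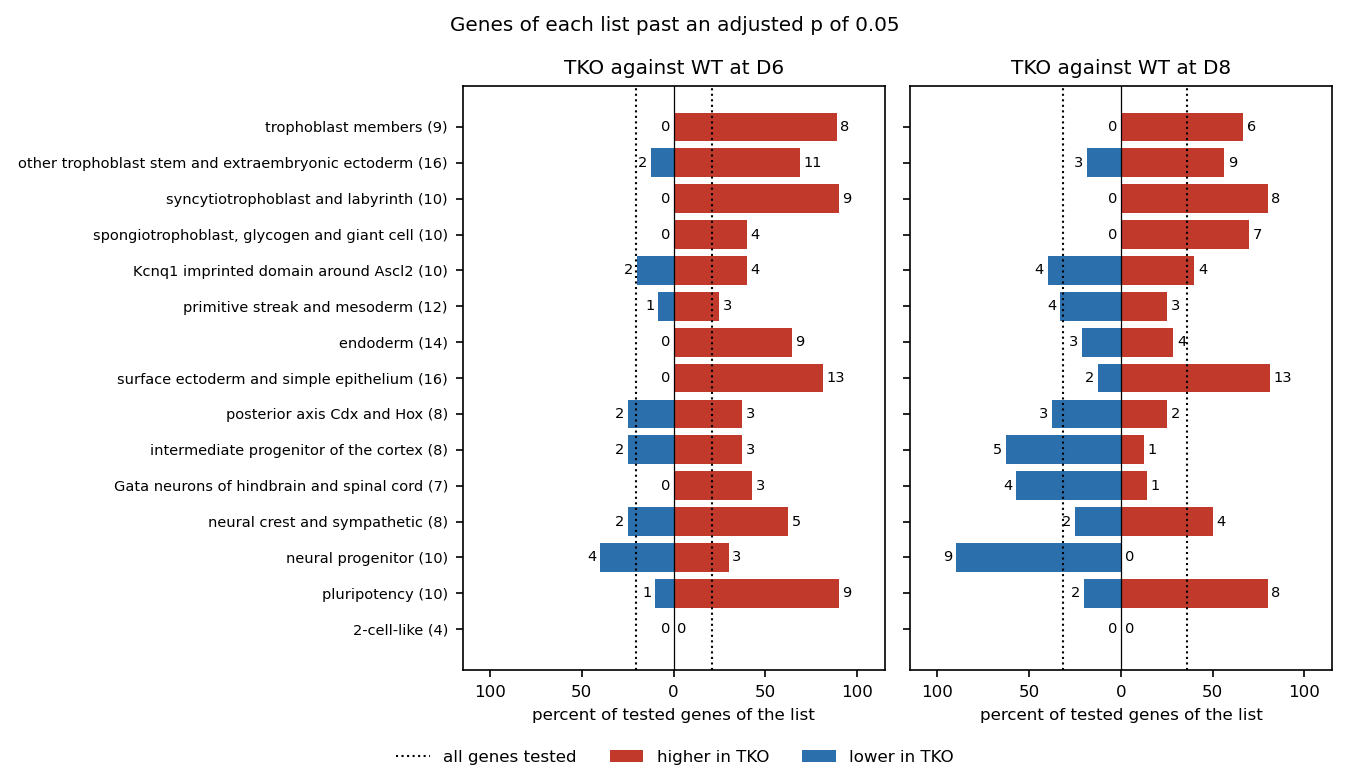
Share of the tested genes of each list called higher in TKO (red, right) or lower (blue, left) than in WT at D6 and D8, in percent, with counts beside the bars, the number tested in parentheses and dotted lines at the shares over all genes tested (at D8 35.8% higher and 31.8% lower). The 9 trophoblast genes have 8 red calls at D6 and 6 at D8 and 0 blue ones.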

How the data were processed

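Each deposited table lists the transcripts of 1 library, 119414 in all. The authors' estimated counts are the reads or fragments kallisto assigned to each transcript, not scaled to depth, and the deposited TPM values are scaled for length and depth, per the file headers. The submitters' processing notes name Trim Galore 0.6.2, kallisto (version not given in the sources used here), GRCm38 and mm10.

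Transcripts were matched to GENCODE M21 genes by identifier (116728 matched, 2686 did not and held 0.943% to 1.099% of a library's counts), and their estimated counts were added up within each gene, then rounded. No 2 libraries held identical values. One fit by edgeR 4.0.16 (R 4.3.3; quasi-likelihood F test, TMM scaling, filterByExpr) took all 20 libraries in 10 groups of genotype and day, 18555 genes, with Benjamini-Hochberg adjustment over all of them and a threshold of 0.05. Levels are CPM after TMM scaling. The SE of a log2 fold change was taken as its absolute value divided by the square root of the F statistic. Precision is limited by 2 libraries a group, and the floor of 3 counts covers counting error only. Alternatives were RLE scaling, no filter on low counts, a replicate block, length-scaled counts, DESeq2 1.42.0, fits of the compared groups alone, each library left out, and, added after the data were seen, protein-coding transcripts alone. The 9 genes and the gene lists were chosen with earlier results of these data known. Genes outside the 9 are up to 4 of each list with the largest absolute log2 fold change among those called in TKO against WT at D8 or TKO D8 against TKO D0, the 3 closest by correlation (1 of those for Gata3 is not reported here), and Dnmt1 and Pou5f1. Gcm1, Prl3d1, Prl8a8, Prl2a1, Tpbpb and Mesp1 were named as defining markers after their values were seen. Kcnq1ot1, named in 1 list, had no entry and is not analysed here.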

Additional observations from a re-analysis of the deposited data

Results flagged for a closer look

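In 5 of the 9 genes the change between D8 and D0 differed between TKO and WT by a test of the difference itself, with 52.3% of all genes tested passing the same test in either direction. The number that passed lies near this share, so it sets the 9 genes apart from no others. The differences, TKO minus WT on the log2 scale, were 4.08 for Hand1, 3.58 for Cdx2, 3.46 for Eomes and 1.12 for Krt7. For Plac1 the difference was -2.16. Eomes and Hand1 rose in TKO and fell in WT, Krt7 and Plac1 rose in both, and Cdx2 rose in TKO and did not pass in WT. WT D0, whose 2 libraries lay furthest apart, enters each of these values, and without WT D0 replicate 2 that of Plac1 did not pass (-1.59, adjusted p = 0.0720).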

How the results depend on the processing

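No value of the 9 genes that had passed changed sign under any alternative run. Over settings other than leaving out a library, 588 values of single genes kept their side of the threshold, 28 lost it and 5 gained it, and over omissions of 1 library the numbers were 357, 34 and 5. The calls of TKO over WT at D6 and D8 for Hand1, Ascl2 and Eomes, at D6 for Plac1 and Krt7, and at D8 for Cdx2 and Tpbpa were kept under every alternative run. The number of the 9 genes called at D6, 8, was 6 with length-scaled counts, 7 in a fit of the compared groups alone and 6 to 8 under omissions. At D8, where it was 6, it was 5 under each omission and with RLE scaling, DESeq2, length-scaled counts and protein-coding transcripts alone, and 7 in a fit of the compared groups alone. The number of the 9 genes called at D2, 5, was 3 with length-scaled counts, 3 with DESeq2 and 3 under each omission. At D4, where it was 2, it was 1 with length-scaled counts, 1 with protein-coding transcripts alone and 0 to 2 under omissions, and the count of all genes called at D4, 5259, ran from 3355 to 3904. The causes were not tested. Same-numbered libraries of 2 groups did not deviate together over all genes tested (r from -0.041 to 0.053 over 45 pairs of groups). Such a correlation cannot show a pairing that moved few genes, so whether the numbers pair libraries is not known. With the replicate number as a block, 8 of the 9 genes were called at D6 and 5 at D8, and the calls of Eomes at D2 (-0.62, adjusted p = 0.0505) and Krt7 at D8 (0.37, adjusted p = 0.0516) ended. Elf5, Cdx2 and Hand1 held no more than 35 counts in any library before D6, which limits what could be detected there.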
